A study of Mus musculus with 8 samples.

Results

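The array carries 952 probes for 908 genes named Olfr, the mouse olfactory receptors. Of these probes, 68, for 67 genes, were marked by the scanner software as well above background on all 8 arrays, and they are the receptors described here, chosen by these marks on the 8 arrays. They make up 7.14% of the Olfr probes, against 22051 of 41174 probes (53.6%) over the whole array. Their detection and their levels are a description and carry no test.

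The RNA came from testes of male mice at postnatal day 14, of mixed C57BL/6 and 129SV strain. The labels name the material as testicular germ cells, and on all 8 arrays, controls included, they carry the germline RNA-binding protein Dazl as a fusion with GFP and V5. They name no promoter for the fusion. The 4 groups of 2 arrays are input (total RNA before precipitation), IgG (a mock control with mouse immunoglobulin), V5 and GFP, the last named for the tag that the antibody recognised. Precipitation was done without crosslinking. The series text names PABP1 where the sample labels name GFP, and 2 description fields clash with their titles: input replicate 2 is described as precipitated and V5 replicate 1 as total RNA. Groups follow the titles, sources and antibodies. Nothing says that the 2 arrays of a group came from separate animals, so p-values measure the spread between arrays, which may be technical. Input and IgG arrays share a slide and V5 and GFP arrays share the other, so slide and precipitate cannot be told apart in any comparison of V5 or GFP with IgG or input.

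Olfactory receptors are G protein-coupled receptors that bind odorants. Their genes lie in large clusters, and their coding part is a single exon. In the nose each sensory neuron expresses one allele of one receptor gene. The receptor signals through the G protein subunit Gnal (Golf), the adenylyl cyclase Adcy3 and a cyclic nucleotide-gated channel that contains Cnga2. Some receptors are also transcribed in testis and other tissues outside the nose, and Olfr16 (MOR23) is known for its part in sperm movement towards an odorant.

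Most Olfr probes were dark on these arrays. Of the 952, 632 (66.4%) were above background on 0 arrays, against 31.2% of all probes. A further 100 passed on 1 array and 28 on 7 arrays. On both arrays of a group, 160 passed in input (16.8%), 163 in IgG (17.1%), 106 in V5 (11.1%) and 84 in GFP (8.82%). Among the probes that passed in some but not all groups, 46 passed in input and IgG alone and 27 in input, IgG and V5. Another 5 passed in V5 and GFP alone, 5 in V5 alone and 4 in GFP alone. Of the 28 probes on 7 arrays, 20 missed the mark on GFP replicate 2, which had the fewest Olfr probes above background (99) and the highest detection floor, a processed signal of 30.5. The floor is the lowest processed signal of any spot marked as well above background on an array. It lay between 21.5 and 30.5.

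The threshold ran through probes of similar brightness. Just inside it lay Olfr30, Olfr29-ps1 and Olfr76, whose smallest ratios to the floor of the same array were 1.11, 1.11 and 1.14. Just outside, each marked on 7 arrays, lay Olfr159, below the mark on V5 replicate 2, and Olfr971 and Olfr788, below it on GFP replicate 2. Their smallest ratios to the floor were 1.46, 1.45 and 1.33. The flag therefore does not follow the processed signal alone. Only 16 of the 68 probes exceeded 3 times the floor on every array, and the median smallest ratio was 1.90.

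Levels below are processed signals in percent of the same array's 75th percentile over non-control spots. A probe's brightness also depends on the probe, so the order of signals is not an order of RNA amounts. In total RNA, fewer cells of a type and less RNA per cell cannot be told apart. Over the 8 arrays the geometric mean of the 68 probes ranged from 3.83% to 126%, with a median of 7.61%. The median over all probes above background on 8 arrays was 81.9%. Only 3 receptors exceeded 20% and 21 exceeded 10%, and 62 of the 68 lay in the dimmest quintile of the probes above background everywhere.

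The 8 brightest probes were those for Olfr571, Olfr234, Olfr174, Olfr744, Olfr544, Olfr1444, Olfr570 and Olfr462. Olfr571, a receptor gene of the chromosome 7 cluster, was the brightest. Its signal was 163% and 169% of the 75th percentile on the input arrays, 192% and 219% on IgG, 99.7% and 90.8% on V5, and 82.4% and 72.6% on GFP. All 4 input and IgG arrays lay above all 4 V5 and GFP arrays, and the lowest array still had 26.5 times the floor. Olfr570, a receptor of the same cluster, gave 13.6% and 12.3% on input, 18.7% and 24.6% on IgG, 14.1% and 12% on V5, and 15.3% and 11.5% on GFP. For Olfr570 the IgG arrays were high and the other 3 groups overlapped. In RefSeq (GRCm38.p6) Olfr570 and Olfr571 lie on either side of the same unnamed locus, LOC115486496.

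The probe for Olfr234, which RefSeq names Olfr279 by its accession, gave 27.9% and 29.3% on input and 36.7% and 45.8% on IgG. On V5 it gave 25.5% and 22.1%, and on GFP 23.9% and 17.4%. Both IgG arrays were the highest. The probe for Olfr174, named Olfr175 by its accession, gave 43.8% and 24.3% on the input arrays, which lay far apart. Its IgG arrays gave 22.9% and 29.2%, its V5 arrays 14.8% and 14.8%, and its GFP arrays 13.4% and 12.3%. V5 and GFP lay below every input and IgG array. Olfr744 and Olfr1444 also had V5 and GFP below input and IgG, with group means of 22.3% and 19.3% on input, 26.1% and 25.1% on IgG, 16.0% and 13.3% on V5, and 15.2% and 13.3% on GFP, respectively.

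Olfr544 and Olfr1393 were the members among 10 receptors listed as reported outside the nose. Olfr544 is a receptor for azelaic acid described in metabolic tissues, and Olfr1393 is a receptor described in kidney. Of the other 8, Olfr15 was above background on 5 arrays, Olfr90 on 1, and Olfr16, Olfr2, Olfr17, Olfr51, Olfr78 and Olfr558 on 0. Olfr544 gave 21.1% and 23.2% on input, 22.2% and 29.5% on IgG, 13.6% and 12.2% on V5, and 12.7% and 12.6% on GFP. The input and IgG arrays overlapped, and V5 and GFP lay below both. Olfr1393 gave 7.39% and 10.2% on input, 9.95% and 9.99% on IgG, 3.79% and 4.12% on V5, and 5.05% and 5.55% on GFP. Here too the V5 and GFP arrays were the lowest.

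The sequences 5′ of the annotated transcript start are shown for Olfr544 and Olfr1393, the members known outside the nose, and for Olfr1030, added after its window was searched as an example with TAATTA. Their RefSeq models reach well beyond a coding exon, so the windows lie before an annotated transcript rather than before a start codon. Each runs 5′ to 3′ on the gene's strand over the 250 bases before the start, credited to RefSeq. Capitals mark TATAAA, the core of a TATA box, in Olfr1393 and TAATTA, a homeodomain core like that bound by Lhx2, in Olfr1030. Olfr544 holds none of the motifs searched.
Olfr544, upstream window, GRCm38.p6 chr7:102488308-102488557, minus strand: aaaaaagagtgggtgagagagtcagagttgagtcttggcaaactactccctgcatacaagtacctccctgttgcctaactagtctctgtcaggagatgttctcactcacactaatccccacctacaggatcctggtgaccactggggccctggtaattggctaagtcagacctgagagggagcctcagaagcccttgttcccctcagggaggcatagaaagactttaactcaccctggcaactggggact
Olfr1393, upstream window, GRCm38.p6 chr11:49279900-49280149, plus strand: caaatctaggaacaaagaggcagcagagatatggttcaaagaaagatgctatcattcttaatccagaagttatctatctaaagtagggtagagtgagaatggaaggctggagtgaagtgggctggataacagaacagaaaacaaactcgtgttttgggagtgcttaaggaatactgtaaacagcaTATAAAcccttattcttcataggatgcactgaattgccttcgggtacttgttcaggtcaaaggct
Olfr1030, upstream window, GRCm38.p6 chr2:85979062-85979311, plus strand: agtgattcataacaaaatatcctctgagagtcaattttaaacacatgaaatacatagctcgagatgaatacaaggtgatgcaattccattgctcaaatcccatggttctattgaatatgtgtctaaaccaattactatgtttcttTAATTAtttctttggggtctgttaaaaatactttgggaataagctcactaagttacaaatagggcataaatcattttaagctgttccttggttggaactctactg
Over such windows, searched on both strands, TATAAA occurred in 18 of 57 windows of the detected receptors (31.6%), in 39.2% of 948 Olfr windows and in 12.4% of 32851 windows of all genes. The shares for TAATTA were 28.1%, 18.0% and 4.84%. For CCCNNGGG, the core bound by the Ebf factors, they were 3.51%, 2.74% and 11.8%. A match describes letters, not a bound site, and many Olfr models start at the coding exon: of 66 RefSeq genes matched to the detected receptors, 52 have a length that is a multiple of 3.

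Probes that share a gene name on the array often differed in detection. Of 40 Olfr genes with more than 1 probe, 6 had a probe above background on all 8 arrays, and for Olfr166 alone this held for both probes. The second probes of Olfr174, Olfr1344, Olfr1393 and Olfr1443 were above background on 0 arrays, and that of Olfr234 on 1. Those 5 dark probes had mean signals of 0.67% to 2.06%, while the detected probes of the same array names had 5.18% to 27.4%. By accession RefSeq names the detected probes of Olfr234 and Olfr174 as Olfr279 and Olfr175. For these names the dark and the detected probe may therefore report different genes. Which probe reports the transcript of these 5 genes was not tested. Probe sequences were not at hand, so binding of the Olfr probes to other RNA could not be examined. A detected receptor here means a probe above background, whichever RNA it bound.

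Olfr166 had the most spots. One of its probes is printed as 10 spots, and all 10 were above background on all 8 arrays. Their mean level was 11.5% and 13.3% on input, 14.6% and 19.1% on IgG, 7.71% and 6.81% on V5, and 6.87% and 5.76% on GFP. The SD of the 10 spots ranged from 0.13 (log2) on IgG replicate 2 to 0.53 on GFP replicate 1. The other probe gave 10.2% and 10.9%, 13.9% and 19.0%, 5.67% and 7.82%, and 9.65% and 4.39% in the same order. Both probes were lower on V5 and GFP than on IgG. Among the non-members, 2 genes have a probe printed 10 times as well: Olfr1307, with 1 to 10 spots above background on an array, and Olfr22-ps1, with 0 to 1.

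The detected receptors lay on many chromosomes. By RefSeq, chromosome 7 held 17 of its 206 matched Olfr probes, chromosome 2 held 11 of 233, and chromosome 11 held 11 of 59 (18.6%). Chromosome 9 held 5 of 117 and chromosome 10 held 0 of 56. In 36 of the 66 matched genes both neighbouring genes are olfactory receptors, in 23 one is, and in 7 neither is. Those 7 are Olfr1350, Olfr1226, Olfr282, Olfr521, Olfr1402, Olfr223 and Olfr63. Olfr397 and Olfr398 formed the only pair of neighbours in which both were detected. None of the 66 gene models (0) overlapped another annotated gene.

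With this scaling the receptors were brightest in the mock precipitate. The median of the 68 was 8.34% and 9.18% on the input arrays, 10.01% and 12.3% on IgG, 6.54% and 5.96% on V5, and 6.55% and 5.72% on GFP. The median of the group means was 8.80% on input, 10.9% on IgG, 6.32% on V5 and 5.99% on GFP. IgG was the highest group for 61 of the 68 probes, input for 5, GFP for 2 and V5 for 0. The share of all probes with IgG highest is not given here. The median log2 change over all probes tested below was -0.18 for V5 and -0.27 for GFP against IgG, and 0.14 for IgG against input. When arrays were scaled to the spike-ins instead, the receptors' median for IgG against input was -0.33. A single array weighed heavily here: IgG replicate 2 was the brightest array for 56 probes and lay above IgG replicate 1 for 64, by a median of 0.35 on the log2 scale. The same counts over all probes are not given here. Over all probes above background on 8 arrays, the median log2 scaled signal was -0.30 on both IgG arrays. The median absolute difference between the 2 arrays of a group was 0.16 on input, 0.36 on IgG, 0.17 on V5 and 0.29 on GFP, against 0.07 to 0.15 for all probes above background on 8 arrays.

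Comparisons between groups were tested per probe with limma over the 8 arrays, on log2 of the scaled signal, with Benjamini-Hochberg adjustment over 25619 probes at 0.05, and SE is that of the fit. Being above background everywhere bars a receptor from falling below detection in any group.

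Against IgG, the V5 precipitate held less signal of the receptors. By limma, 42 of 68 probes were lower and 1 was higher, where 35.6% of all probes fitted were lower and 17.8% higher. The median log2 change was -0.70, against -0.18 over all probes fitted and -0.16 over those above background on 8 arrays. The 42 falls ranged from -0.54 to -1.85, and 16 were at least 2-fold. The share of all probes with a fall of at least 2-fold is not given here. The arrays of V5 and IgG did not overlap for 59 of the 68, which was also so for 78.4% of all probes fitted. Over the other probes above background on 8 arrays, the quartiles of the change were -0.37 and 0.18. The lower quartile was short of a 2-fold fall. Among the 4343 other probes of the dimmest quintile the median was -0.25 and 35.8% were lower. The 62 receptors in that quintile had a median of -0.66, and 36 of them were lower.

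Olfr571 was lower with V5 than with IgG by -1.11 ± 0.10 (log2, SE; limma adjusted p = 0.0013). Olfr282 gave 12.3% and 14.9% on IgG and 6.98% and 6.99% on V5, a change of -0.96 ± 0.10 (limma adjusted p = 0.0017). Olfr469 gave 11.2% and 14% on IgG and 5.99% and 4.98% on V5, a change of -1.20 ± 0.13 (limma adjusted p = 0.0020). In each of these the V5 arrays lay below both IgG arrays. The steepest falls, named after their values were seen, were those of Olfr549 (-1.85 ± 0.31), Olfr656 (-1.70 ± 0.26) and Olfr1350 (-1.48 ± 0.24). Both probes of Olfr166 fell, by -1.21 and -1.29. Olfr1221 was the exception: it gave 4.58% and 4.63% on IgG and 5.65% and 5.88% on V5, a rise of 0.32 ± 0.10 (limma adjusted p = 0.032). That rise turned to -0.081 when the local background was subtracted with an offset, and lost its call in 10 of 19 alternatives.

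The GFP precipitate gave much the same picture, against the same IgG arrays. By limma, 45 of 68 probes were lower and 1 was higher, where 46.8% of all probes fitted were lower and 23.6% higher. The median was -0.80, against -0.27 over all probes fitted, and the 45 falls ranged from -0.55 to -2.18, with 23 at least 2-fold. The share of all probes with a fall of at least 2-fold is not given here either. The arrays did not overlap for 55 of the 68, against 85% of all probes fitted. Over the other probes above background on 8 arrays, the quartiles were -0.55 and 0.30. The lower quartile was again short of a 2-fold fall. In the dimmest quintile, other probes had a median of -0.34 with 46.4% lower, and receptors a median of -0.77 with 39 of 62 lower. Of the 68 probes, 40 were lower than IgG in both precipitates, a count that shares the IgG arrays. Of all probes fitted, 35.6% were lower with V5 and 46.8% with GFP, and the share lower in both is not given here.

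Olfr571 fell by 1.41 ± 0.10 (log2, SE; limma adjusted p = 0.00017). Olfr462 gave 22.3% and 25.4% on IgG and 6.86% and 4.91% on GFP, a change of -2.03 ± 0.16 (limma adjusted p = 0.00022). Olfr282 changed by -0.99 ± 0.10 (limma adjusted p = 0.00043). Olfr549 again changed most, by -2.18 ± 0.31, from 19.2% and 25.1% on IgG to 6.28% and 3.72% on GFP. Olfr1221 rose by 0.47 ± 0.10 (limma adjusted p = 0.0052), to 7% and 5.84%. Olfr544 and Olfr1393 were lower in both precipitates, Olfr544 by -0.99 with V5 and -1.02 with GFP, and Olfr1393 by -1.34 and -0.91.

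Nearly all these calls were lost with the normexp background correction of the raw signals, which was run with an offset of 50 added. With it 0 of the 68 receptors were called between V5 and IgG and 1 between GFP and IgG, with medians of -0.14 and -0.22. V5 against IgG then called 0 of all 25619 probes. The parts of the correction and of the offset in this loss were not tested. At an unadjusted p under 0.05, limma then had 1 and 2 receptors. Of all probes it had 4687 between V5 and IgG and 8123 between GFP and IgG. Relative to the median of all probes fitted, the receptors lay at -0.52 (V5) and -0.53 (GFP) with the main scaling. The array median and the spike-ins gave the same values. They lay at -0.41 and -0.39 after quantile normalization and at -0.10 and -0.09 after normexp. With the local background subtracted with an offset of 50, chosen after seeing the data, they lay at -0.33 and -0.28. Raw dim signal also differed between the slides. Probes of negative controls had a median raw signal of 50.1 to 51.7 on the input and IgG arrays and 46.6 to 48.7 on V5 and GFP, and the 632 undetected Olfr probes 59.0 to 60.4 and 52.4 to 55.1. The part of this offset in the receptors' change was not tested.

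Scaling sets where 0 lies. Over all probes, V5 against IgG gave 4563 higher and 9130 lower, but 7484 higher and 2009 lower when each array was scaled to its median, 10981 and 948 with spike-in scaling, and 5653 and 6902 after quantile normalization. With the array median and the spike-ins 26 and 18 receptors were lower with V5 and 1 and 2 higher. For GFP against IgG, all probes split into 6047 higher and 11984 lower, then 8528 and 6216, and 11402 and 1822. In that comparison 37 and 17 receptors were lower and 2 were higher in each. Leaving out 1 array at a time leaves 1 array in a group. The receptors' median between V5 and IgG then ran from -0.87 to -0.52. In some of these fits fewer were called than in the full fit, over all probes as well as over the receptors. Fewer receptors were also called between V5 and IgG without both arrays whose descriptions clash.

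Most listed markers of other cells of the testis moved in the same direction against IgG. Against IgG, 10 of 12 Sertoli markers fell with V5 and 12 with GFP, of 6 peritubular myoid markers 6 and 6, of 7 Leydig markers 5 and 6, of 8 leukocyte markers 5 and 6, of 5 endothelial markers 5 and 5, and of 5 erythroid markers 4 and 5. Of all probes fitted, 35.6% were lower with V5 and 46.8% with GFP. In the Leydig and the erythroid list 1 marker each was above background on 0 arrays. In IgG against input, 5 Sertoli markers were higher and 3 lower, Leydig 4 and 1, and endothelial 4 and 0. Peritubular myoid markers gave 0 and 5, leukocyte 1 and 4, and erythroid 2 and 2. The receptors there gave 20 and 0, and all probes fitted 40.2% and 33%. The summed Sertoli level was 28550% and 29239% on the IgG arrays, 22140% and 21294% on V5, and 18256% and 19312% on GFP. Against IgG, 6 of 10 germ cell markers were higher in each precipitate, and 1 and 2 were lower. Of all probes fitted, 17.8% were higher with V5 and 23.6% with GFP. Dazl itself was higher by 0.98 ± 0.15 with V5 and 1.49 ± 0.15 with GFP, and the germ cell helicase Ddx4 by 0.46 and 0.45. The part of these markers in the receptors' change was not tested.

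The mock precipitate against input asks which RNA came down without either tag antibody. By limma, 20 of 68 receptors were higher and 0 lower in IgG, where 40.2% of all probes fitted were higher and 33% lower. The share higher, 29.4%, was below that background. At an unadjusted p under 0.05 there were 25, in either direction. The median was 0.37, against 0.14 over all probes fitted. Only Olfr1065 passed 2-fold among the calls: it gave 5.21% and 5.57% on input and 13.3% and 16.7% on IgG, a rise of 1.47 ± 0.12 (limma adjusted p = 0.000075). The share of all probes that passed 2-fold is not given here. Olfr1339 rose from 4.88% and 6.10% to 9.43% and 10.3%, by 0.85 ± 0.11 (limma adjusted p = 0.00059). Olfr1048 rose from 5.63% and 6.74% to 9.86% and 11.7%, by 0.80 ± 0.15 (limma adjusted p = 0.0026). In all 3 both IgG arrays lay above both input arrays. With 1 array left out at a time, which leaves 1 array in a group, the receptors' median ran from 0.20 to 0.54. Fewer receptors were called in some of these fits and more in others, while the number over all probes changed less. Fewer receptors were also called without both arrays whose descriptions clash, which leaves 1 input array. With spike-in scaling the receptors' median was -0.33 and that of all probes -0.57, and all probes split into 3546 higher and 15407 lower in place of 10295 and 8458.

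Against input, receptors in the V5 precipitate were seldom higher, and the share lower (30.9%) did not exceed that of all probes. By limma, 21 of 68 were lower and 2 higher, where 37.6% of all probes fitted were lower and 34.8% higher. The median was -0.33, against -0.05, and -0.25 for the receptors of the dimmest quintile against -0.22 for the other probes there. Olfr462 gave 24.6% and 25.6% on input and 9.95% and 10.8% on V5, a change of -1.28 ± 0.16 (limma adjusted p = 0.00051). Olfr571 changed by -0.80 ± 0.10 and Olfr1393 by -1.14 ± 0.15 (limma adjusted p = 0.00054 and 0.00070). Olfr1065 and Olfr1221 were the 2 that rose, Olfr1065 to 9.38% and 10.2%, by 0.86 ± 0.12, and Olfr1221 by 0.46 ± 0.10. All probes split into 8924 higher and 9622 lower, 12275 and 6320 with the array median, and 6031 and 12271 with spike-in scaling, where 40 receptors were called. Without both arrays whose descriptions clash, which leaves 1 input and 1 V5 array, fewer receptors were called than in the full fit.

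GFP against input gave, by limma, 32 of 68 lower and 4 higher, where 39.9% of all probes fitted were lower and 34.5% higher. The median was -0.50, against -0.09. In the same fit 26 of the 62 receptors in the dimmest quintile were lower, where 42.4% of the other probes there were, with medians of -0.37 and -0.25. Olfr462 changed by -2.11 ± 0.16, Olfr571 by -1.10 ± 0.10 and Olfr559 by -0.88 ± 0.14 (limma adjusted p = 0.000053, 0.00012 and 0.0013). Olfr559, of the chromosome 7 cluster, gave 8.41% and 7.81% on input and 4.35% and 4.46% on GFP. Olfr1065 rose by 0.88 ± 0.12, Olfr1221 by 0.61 ± 0.10 and Olfr1048 by 0.52 ± 0.15. Of the 68, 21 were lower than input in both precipitates, which share the input arrays. Of all probes fitted, 37.6% were lower with V5 and 39.9% with GFP, and the share lower in both is not given here. After normexp the medians against input became 0.54 for V5 and 0.47 for GFP, and 1 receptor was called in each. At an unadjusted limma p under 0.05 there was also 1 receptor in each, and 9483 and 9896 of all probes. Scaling to the array median gave -0.013 and -0.15, with 15 lower and 8 higher for V5 and 13 lower and 10 higher for GFP. Over all probes that scaling turned GFP against input from 8840 higher and 10225 lower into 12174 and 6821. With 1 array left out at a time, the receptors' median for GFP against input ran from -0.56 to -0.33.

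In the authors' deposited table, whose group means were normalized to the median, 62 of the 68 probes had a unique entry. V5 lay below input for 31 and GFP for 32 of them, with median log2 ratios of 0.02 and -0.09. For Olfr571 the authors' deposited table gives 16.2 for input, 11.4 for V5 and 9.11 for GFP, in the authors' normalized units. It holds no IgG mean.

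V5 and GFP were compared directly, to ask whether the 2 tags of one protein brought down different receptor RNA. By limma 1 of 68 receptors was called, Olfr462, where 11.5% of all probes fitted were called, and 4 had an unadjusted p under 0.05. The median was 0.03. Olfr462 gave 9.95% and 10.8% on V5 and 6.86% and 4.91% on GFP, a difference of 0.84 ± 0.16 (limma adjusted p = 0.036). The arrays of the 2 precipitates did not overlap for 20 receptors, against 69.4% of all probes fitted. With 1 array left out at a time, the receptors' median ran from -0.04 to 0.21 and the difference of Olfr462 from 0.60 to 1.08. All probes split into 1207 higher and 1736 lower with V5, 618 and 1727 with the array median, and 162 and 1815 with spike-in scaling.

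The genes that olfactory receptors work with were measured in part. Of 20 listed signalling genes 17 were on the array and 10 were above background on all 8 arrays. Gnal was above background on 1 array, and Rtp1 and Rtp2, which carry receptors to the cell surface, on 0. Adcy3 (22.1%), Cnga2 (7.32%) and Ric8b (71.8%), a chaperone of Gnal, were above background on all 8, and Omp, the marker of mature olfactory neurons, on 4. By limma, of 12 fitted genes 1 was higher and 5 lower in V5 than in IgG, and 2 higher and 6 lower in GFP. Of all probes fitted 17.8% and 35.6% were higher and lower with V5, and 23.6% and 46.8% with GFP. Cnga2 changed by -0.94 and -0.95, and Gnb1, a G protein beta subunit used in many tissues, by 0.60 and 1.06. Ric8b did not pass the test in either, with changes of 0.06 and 0.12.

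Of 15 genes listed for receptor choice, the step by which a neuron settles on one receptor, 12 were fitted. Between V5 and IgG 4 were higher and 6 lower, and between GFP and IgG 5 and 5, beside the same shares of all probes, 17.8% and 35.6% with V5 and 23.6% and 46.8% with GFP. Lbr, a lamin receptor, rose by 1.25 and 1.66, the factor Ebf3 by 0.96 and 1.37, and the homeodomain factor Lhx2 by 0.33 and 0.72. Ebf4 changed by -0.56 and -0.65, and Neurog1, a factor of neuronal precursors, by -0.81 and -1.01. Both directions occurred among these factors.

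Pheromone receptors of the vomeronasal organ were rarely detected too. Of 117 V1r probes 6 (5.13%) were above background on all 8 arrays and 79 on 0. Their medians were -0.60 for V5 against IgG, -0.49 for GFP against IgG and 0.39 for IgG against input, and 3, 2 and 3 of the 6 were called, where 53.4%, 70.4% and 73.2% of all probes fitted were. Of 9 V2r, 4 Taar and 16 taste receptor probes, 0, 0 and 1 were above background on all 8.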

How the data were processed

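One-colour arrays of testis RNA were hybridised with Cy3-labelled RNA, 2 per group. Per the file headers, Agilent Feature Extraction 9.1.3.1 made the deposited intensity values: background was subtracted, trends over the slide corrected, and surrogates set for spots not above background. Flags in the deposited files mark spots well above background. In the deposited series table the authors' group means are signal values, normalized to the median per its comment lines; 6 further value columns were left aside.

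Processed signals were put on the log2 scale and each array's 75th percentile subtracted, without spots marked as outliers, and a probe's spots were averaged. The 25619 probes above background on every array of some group were fitted over 8 arrays with limma 3.58.1 in R 4.3.3, with 4 residual and 2.36 prior degrees of freedom. The number of arrays limits the precision. Called means an adjusted p under 0.05, two-sided, in 6 comparisons.

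Named receptors are the 8 brightest, up to 3 each way per comparison with the smallest p and separate arrays, those reported outside the nose, the 3 on either side of the detection threshold, and those with a second probe. The members and lists were chosen with earlier results of these data known. Of the 952 Olfr probes 925 matched RefSeq GRCm38.p6 by accession, and 67 of the 68 members. In a simulated V5 and IgG comparison of 25619 probes, 13, 35, 42 and 47 of 50 were recovered at log2 changes of 0.5, 1, 1.5 and 2, with 6 false calls in all. Only these 50 probes per size were changed there, while 53.4% of probes were called between V5 and IgG in the data. The adjustment differs between such settings, so the recovery need not hold for the data. Alternatives were background correction (normexp with an offset of 50), scaling, filter, probe choice, arrays fitted, the replicate block and leaving out arrays. Subtraction of the local background with an offset of 50 and scaling to the array median were chosen after seeing the data.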

Additional observations from a re-analysis of the deposited data

Results flagged for a closer look

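Olfr462 was the receptor whose change against IgG differed between the precipitates: V5 minus GFP was 0.84 on the log2 scale (limma adjusted p = 0.036). Against IgG it changed by -1.20 with V5 and by -2.03 with GFP. The call was lost in 11 of 19 alternatives, over which the difference ran from 0.36 to 1.08 and the adjusted p from 0.0099 to near 1.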

How the results depend on the processing

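The receptors' medians for V5 and GFP against IgG stayed below 0 in all 19 alternatives run. Normexp left 0, 1, 0, 1, 1 and 0 receptors called by limma. The order is V5 and GFP each against IgG, then IgG, V5 and GFP each against input, then V5 against GFP. At an unadjusted limma p under 0.05 there were 1, 2, 0, 1, 1 and 0 receptors. Of all 25619 probes, 4687, 8123, 10290, 9483, 9896 and 1069 had such a p. Normexp also turned the medians of V5 and GFP against input to 0.54 and 0.47. Olfr1393 in V5 against input became 0.31 and Olfr559 in GFP against input 0.38. Spike-in scaling gave 20 and 19 calls against IgG, 40 for V5 against input and 0 for V5 against GFP, with medians of -0.33 for IgG against input and -0.065 for V5 against GFP. Quantile normalization gave 31 calls for IgG against input and a median of -0.0059 for V5 against GFP. Without a filter on dim probes, 10 were called for IgG against input and 0 for V5 against GFP, which also had 0 with only the 4 arrays of its groups. Without both arrays of conflicting descriptions there were 10, 9, 12, 21 and 0 calls for V5 against IgG, for IgG, V5 and GFP each against input, and for V5 against GFP, whose median was -0.016. Local background subtraction with offset 50, chosen after seeing the data, gave 31 calls for IgG against input, 3 for V5 against GFP with a median of -0.015, and -0.081 for Olfr1221 in V5 against IgG. Median scaling, also chosen after seeing the data, gave 27 calls for V5 against IgG and 23 for GFP against input. The causes of these shifts were not tested.

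Leaving out 1 array at a time gave 24 to 49, 38 to 53, 6 to 32, 21 to 29, 22 to 38 and 0 to 3 calls in the order above, and a median for V5 against GFP of -0.042 (without GFP replicate 2) to 0.21, with -0.016 without V5 replicate 1. GFP against input gave 22 without input replicate 2, and IgG against input 32 without IgG replicate 1. The number of receptors above background on every array was 68 to 88 with 1 array left out, 262 by the laxer mark of positive and significant signal, and 16 at over 3 times the floor. Same-numbered arrays of different groups deviated with correlations of -0.09 to 0.09. With 2 arrays per group, array noise can hide a shared effect, so whether the numbers pair the samples is not settled. With the replicate block 42, 46, 19, 23, 32 and 0 receptors were called. Low signal over background limits these values: 52 of 68 receptors came within 3 times the floor on some array.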
